A study of Mus musculus with 12 samples.

Results

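The genes described here are Pogz, the 3 genes that encode heterochromatin protein 1 (HP1), which are Cbx5, Cbx1 and Cbx3, and 6 genes for proteins known to work beside POGZ or HP1, namely Adnp, Adnp2, Chd4, Trim28, Psip1 and Mga. They were chosen by symbol, as 10 of the 39017 genes in the deposited count tables, and each was measured in every library. The tables hold RNA-seq of 4T1, a mouse mammary carcinoma line of BALB/c origin that is used as a model of triple-negative breast cancer. The 12 libraries form 4 groups of 3: KO-labelled cultures 1, 2 and 3, labelled POGZ knockout; VC-labelled cultures 1, 2 and 3, labelled POGZ WT; KO-labelled tumors POGZ_KO_8454, POGZ_KO_8455 and POGZ_KO_8459; and VC-labelled tumors POGZ_VC_8447, POGZ_VC_8448 and POGZ_VC_8451. The labels do not spell out VC. Cultures were grown in DMEM with 10% FBS and lysed at 75% confluency, and tumors were taken on day 28 after cells had been injected into a mammary fat pad of host mice of the BALB/c strain aged 8 weeks. The labels name neither the edited site nor the number of clones, and they do not say whether the numbered cultures were grown apart, so the p-values for cultures measure the spread between these libraries, which may be technical.

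POGZ is a zinc finger protein with a domain related to pogo transposases, and it binds HP1. The HP1 proteins hold methylated lysine 9 of histone H3 through a chromodomain and bind partner proteins through a chromoshadow domain. In human cells POGZ competes for HP1 during mitosis and is needed for Aurora B to leave chromosome arms. ADNP joins HP1 and the remodeler CHD4 in the ChAHP complex, while TRIM28 brings HP1 and the methyltransferase SETDB1 to sites bound by KRAB zinc finger proteins. PSIP1 is a known binding partner of POGZ, and MGA is the scaffold of PRC1.6, a Polycomb complex that also holds CBX3.

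Total counts were 14724518 to 21863223 in KO-labelled cultures, 17714560 to 18643217 in VC-labelled cultures, 12128993 to 13043831 in KO-labelled tumors and 4712001 to 8338828 in VC-labelled tumors. Each of the 10 genes had at least 91 counts in each library. The epithelial genes Krt7, Krt8, Krt18, Krt19, Epcam and Cdh1 summed to 3505 to 3578 CPM (counts scaled to a common library size by TMM over all libraries) in KO-labelled cultures and 3181 to 3538 CPM in VC-labelled cultures, and to 1708 to 1920 CPM in KO-labelled tumors and 1836 to 2223 CPM in VC-labelled tumors. Of the receptors that define the triple-negative class, Pgr was at or under 0.0669 CPM in all cultures. Esr1 was present at 39.8 to 40.2 CPM in KO-labelled cultures and 34.4 to 38.4 CPM in VC-labelled cultures, and Erbb2 at 58.7 to 59.8 CPM and 60.3 to 68.1 CPM in the same 2 groups. The macrophage genes Adgre1, Csf1r, Cd68, C1qa, C1qb and Mrc1 summed to at most 48.4 CPM in cultures, with Adgre1 at 0 in all of them, and to 655 to 1635 CPM in KO-labelled tumors against 557.5 to 863 CPM in VC-labelled tumors. Tumor values are thus sums over carcinoma and host cells, in which fewer cells of a type and less RNA per cell cannot be told apart.

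Cultures labelled as knockouts had more Pogz RNA than VC-labelled ones, and the tumor groups overlapped. Pogz (ENSMUSG00000038902, chr3:94837567-94882326, plus strand, GRCm38) stood at 67.8, 66.7 and 68.3 CPM in KO-labelled cultures 1, 2 and 3, against 50.7, 51.2 and 47.96 CPM in VC-labelled cultures 1, 2 and 3. All 3 KO-labelled cultures were above all 3 VC-labelled ones. The log2 fold change was 0.45 ± 0.043 (SE, 95% interval 0.35 to 0.54), a 1.36-fold rise with an adjusted p of 3.66e-06 by edgeR's quasi-likelihood test with Benjamini-Hochberg adjustment. An exact permutation test on the same values gave a two-sided p of 0.1, the smallest that 3 against 3 allows. A fit over all 12 libraries, which shares the wider spread of the tumors, gave a log2 fold change of 0.44 with an adjusted p of 0.098.

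In tumors Pogz stood at 134.6, 105 and 86.2 CPM in KO-labelled tumors POGZ_KO_8454, POGZ_KO_8455 and POGZ_KO_8459, against 85.9, 104 and 113 CPM in VC-labelled tumors POGZ_VC_8447, POGZ_VC_8448 and POGZ_VC_8451. The groups overlapped, and tumor POGZ_KO_8454 was the highest of the 6. The log2 fold change was 0.11 ± 0.20 (SE, 95% interval -0.34 to 0.56, edgeR adjusted p = 0.944; exact permutation p = 0.6), and it was -0.068 without tumor POGZ_KO_8454 and -0.005 without tumor POGZ_VC_8447. Whole-gene counts do not show whether the RNA carries an edit and say nothing about the protein. For this reason the groups are called by their labels throughout.

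**Figure D1:**
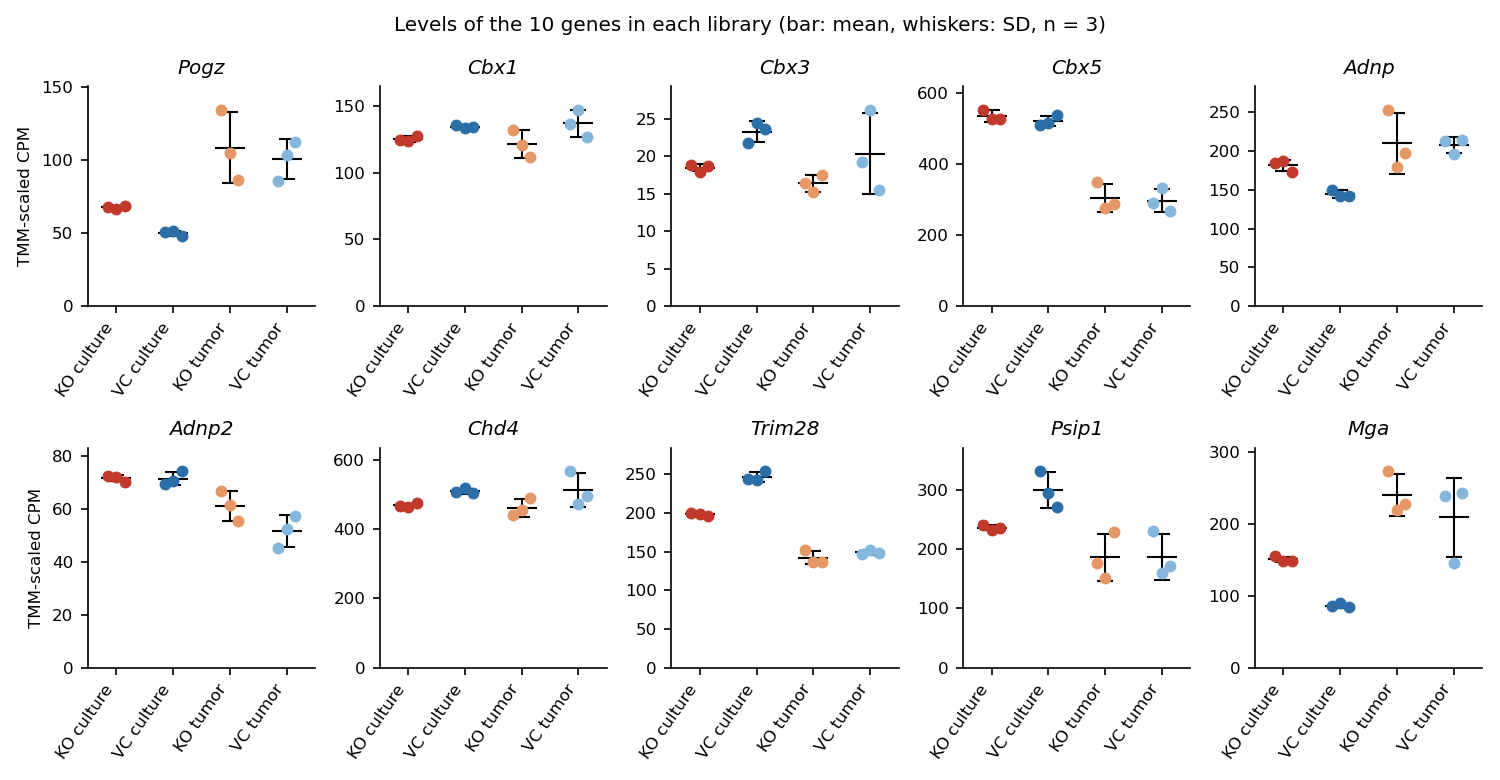
Level of each of the 10 genes (y axis, TMM-scaled CPM from 0) in each library (points) of KO-labelled and VC-labelled cultures and tumors, with the group mean (bar) and SD (whiskers), n = 3. The 3 KO-labelled cultures lay above the 3 VC-labelled cultures for Pogz, Adnp and Mga and below them for Cbx1, Cbx3, Chd4, Trim28 and Psip1, while the tumor groups overlapped for all 10 genes.

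The other 9 genes are described by role, first in cultures and then in tumors. In cultures 7 of the 10 genes, Pogz included, passed an adjusted p of 0.05 in the edgeR test, 3 higher and 4 lower in KO-labelled libraries. Over all 15705 genes tested the same threshold called 47.9%, with 23% higher and 24.9% lower; 7 of 10 is to be read against that share. The groups did not overlap for 8 of the 10 genes, against 55.7% of all genes tested; 3 were higher and 5 lower, against 25.5% and 30.2% of all genes. The median log2 fold change was -0.039 over the 10 genes and -0.013 over all genes tested.

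Of the 3 HP1 genes, Cbx3 fell in KO-labelled cultures and the other two did not pass the threshold. Cbx5 (HP1 alpha, chr15:103191544-103239816, minus strand) gave 553, 525 and 525 CPM in KO-labelled cultures, against 510.3, 515 and 538 CPM in VC-labelled cultures. These ranges overlapped, and the log2 fold change of 0.047 ± 0.042 had a 95% interval of -0.044 to 0.14 (edgeR adjusted p = 0.384). Cbx1 (HP1 beta, chr11:96789127-96808640, plus strand) gave 124.5, 124 and 128 CPM in KO-labelled cultures, against 136, 133.5 and 134 CPM in VC-labelled cultures. The Cbx1 groups did not overlap, yet its log2 fold change of -0.092 ± 0.036 missed the threshold (edgeR adjusted p = 0.053).

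Cbx3 (HP1 gamma, chr6:51470360-51483704, plus strand) had the lowest level of the HP1 genes, at 18.8, 17.9 and 18.8 CPM in KO-labelled cultures and 21.8, 24.5 and 23.7 CPM in VC-labelled cultures. It fell by 0.32 ± 0.068 on the log2 scale (edgeR adjusted p = 0.00167), and the groups did not overlap. Near-identical copies of its coding sequence elsewhere in the genome have counts of their own, and from which locus these reads came was not tested. The processed pseudogene Cbx3-ps6 (chr14:73955000-73955551, minus strand) held 818, 674 and 999 counts in KO-labelled cultures, against 988, 1102 and 1149 counts in VC-labelled cultures, whereas Cbx3 itself held 328, 268 and 412 counts in KO-labelled cultures and 388, 463 and 440 counts in VC-labelled cultures. A second processed pseudogene, Cbx3-ps7 (chr1:58646688-58647239, plus strand), held 79 to 115 counts in KO-labelled cultures and 138 to 156 counts in VC-labelled cultures.

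The 552-base coding sequence of Cbx3 differs from Cbx3-ps6 at 1 base and from Cbx3-ps7 at 2 bases, counted from 1 at the A of the start codon. The substitutions are A390G in Cbx3-ps6, and A390G and C399T in Cbx3-ps7. Positions 360 to 419, from the GENCODE M21 transcripts, are printed because they hold all of these differences, with the differing bases in capitals, and outside these bases the coding sequences are identical.
Cbx3: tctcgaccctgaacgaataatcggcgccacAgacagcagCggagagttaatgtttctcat
Cbx3-ps6: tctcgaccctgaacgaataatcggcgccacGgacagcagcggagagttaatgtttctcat
Cbx3-ps7: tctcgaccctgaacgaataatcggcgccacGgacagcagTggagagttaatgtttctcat

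Cbx3-ps6 fell by 0.34 ± 0.051 and Cbx3-ps7 by 0.55 ± 0.14 on the log2 scale in KO-labelled cultures (edgeR adjusted p = 0.000131 and 0.00503). With the processed pseudogenes added to the gene, Cbx3 averaged 69.8 ± 0.465 CPM in KO-labelled cultures and 89.9 ± 3.85 CPM in VC-labelled cultures (SD, n = 3 each). Its log2 fold change was then -0.35 ± 0.043 (edgeR adjusted p = 2.46e-05), close to that of the gene alone.

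As a share of the summed length-scaled level of the HP1 genes (CPM per kb of exon), Cbx5 made up 65.6%, 64.6% and 63.9% in KO-labelled cultures, against 61.6%, 61.8% and 62.8% in VC-labelled cultures. All 3 KO-labelled shares were higher. The mean difference was 2.62 percentage points, with a two-sided exact permutation p of 0.1, the smallest possible here, and 0.15 after adjustment over the 6 HP1 shares tested. Cbx1 made up 32 ± 0.813% in KO-labelled cultures and 33.8 ± 0.715% in VC-labelled cultures, and Cbx3 3.37 ± 0.0568% and 4.17 ± 0.228% in the same groups (SD, n = 3 each). With its pseudogenes added, the Cbx3 share became 11.6% in KO-labelled cultures and 14.4% in VC-labelled cultures, so the share of this gene rests on how reads were assigned.

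In tumors Cbx5 made up 53.6%, 49.9% and 52.2% of the HP1 level in KO-labelled tumors, against 47.8%, 48.7% and 48.01% in VC-labelled tumors. These groups did not overlap either, with a difference of 3.74 percentage points and the same exact permutation p of 0.1, or 0.15 after the same adjustment. A share depends on all of the HP1 genes. The log2 fold change of Cbx5 itself in tumors was 0.039 ± 0.16 (edgeR adjusted p = 0.976). The Cbx1 share was 43.9 ± 1.81% in KO-labelled tumors and 46.9 ± 1.21% in VC-labelled tumors (SD, n = 3 each, exact permutation p = 0.2), and the Cbx3 share 4.24 ± 0.53% and 4.91 ± 0.815% in the same groups (exact permutation p = 0.4). With pseudogenes added, the Cbx3 share became 11.1% in KO-labelled and 11.8% in VC-labelled tumors, and the Cbx5 share 48.2% and 44.7%.

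**Figure D2:**
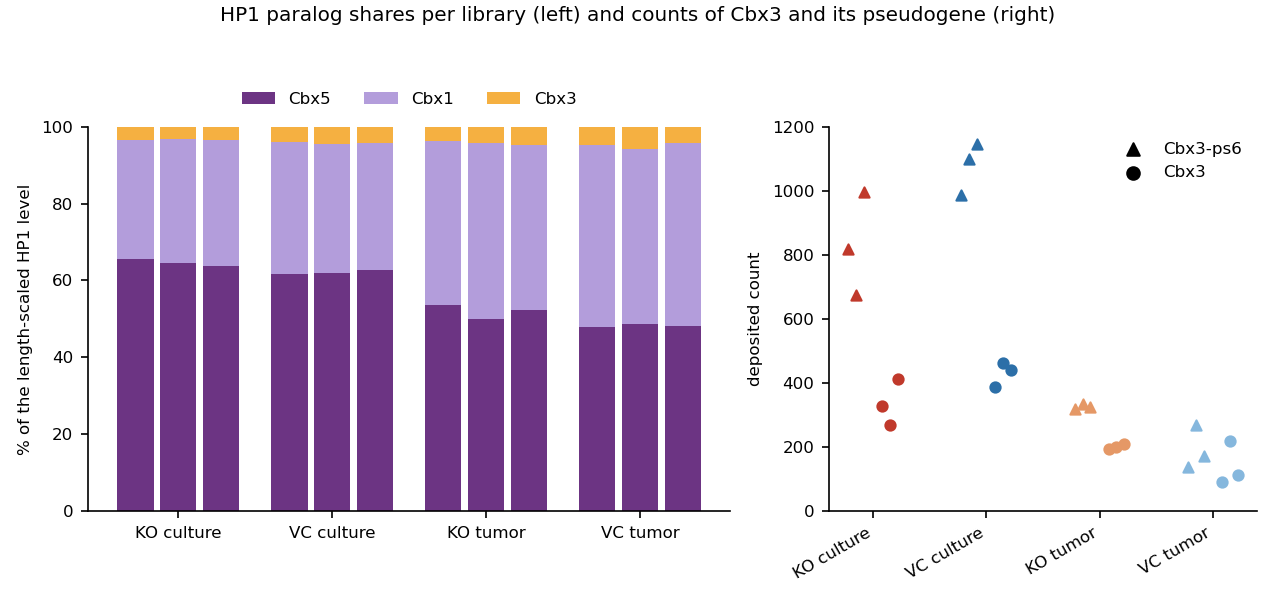
Left, share of Cbx5, Cbx1 and Cbx3 in the summed length-scaled HP1 level of each library (stacked bars, y axis in percent), in KO-labelled and VC-labelled cultures and tumors; Cbx5 made up 63.9% to 65.6% in KO-labelled cultures and 61.6% to 62.8% in VC-labelled cultures. Right, deposited counts (y axis) of Cbx3 (circles) and of its processed pseudogene Cbx3-ps6 (triangles) in the same libraries, where the pseudogene had the higher count in all 12.

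Adnp and Chd4, which encode ChAHP subunits, had changes of opposite sign in cultures. Relative to the median change of their chromosomes, described below, both were positive, at 0.095 and 0.343. Adnp (chr2:168180986-168207112, minus strand) gave 184, 187 and 173 CPM in KO-labelled cultures, against 150.1, 141 and 141 CPM in VC-labelled cultures. It rose by 0.34 ± 0.044 on the log2 scale (edgeR adjusted p = 4.4e-05), and the groups did not overlap. The annotated gene Gm20716 covers 82.1% of the exon bases of Adnp on the same strand and had higher counts than Adnp in all 12 libraries. It rose by 0.36 ± 0.044 (edgeR adjusted p = 2.96e-05), and as the 2 genes share most of these bases their counts are not independent. Adnp2, the paralog of Adnp on chromosome 18, gave 70.4 to 72.7 CPM in KO-labelled cultures and 69.6 to 74.5 CPM in VC-labelled cultures, and its log2 fold change of 0.013 had a 95% interval of -0.079 to 0.11 (edgeR adjusted p = 0.826).

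Chd4 (chr6:125095981-125130591, plus strand), the ATPase of the NuRD and ChAHP complexes, gave 469, 465 and 475 CPM in KO-labelled cultures, against 509, 519 and 505 CPM in VC-labelled cultures. The groups did not overlap, and the fall of 0.11 ± 0.037 on the log2 scale passed the threshold (edgeR adjusted p = 0.0254). The call was lost without KO-labelled culture 1, 2 or 3 or VC-labelled culture 2, with adjusted p values of 0.104 to 0.114.

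Trim28 and Psip1 were lower in KO-labelled cultures. Trim28 (chr7:12999114-13031035, plus strand), the corepressor also called KAP1, gave 199.7, 198.5 and 196 CPM in KO-labelled cultures, against 243, 243 and 254 CPM in VC-labelled cultures. It fell by 0.31 ± 0.038 on the log2 scale, to 0.808 of the VC-labelled level (edgeR adjusted p = 2.98e-05), and the groups did not overlap. Psip1 (chr4:83455680-83486459, minus strand), the gene of LEDGF, which reads methylated lysine 36 of histone H3, gave 239, 232 and 236 CPM in KO-labelled cultures, against 331, 294 and 271 CPM in VC-labelled cultures. Its VC-labelled libraries were the most spread of the 10 genes in that group, with a coefficient of variation of 10.1%, but all 3 were above the KO-labelled ones, and the fall was 0.33 ± 0.06 on the log2 scale (edgeR adjusted p = 0.000569). Snapc3 lies on the opposite strand over 9.5% of the exon bases of Psip1, and whether reads were counted by strand is not given in the sources used here. Snapc3 fell by a like 0.33 ± 0.072 (edgeR adjusted p = 0.00224).

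Mga showed the largest change of the 10 genes in cultures. MGA pairs with MAX at E-boxes and carries a T-box domain. Mga (chr2:119897228-119969581, plus strand) gave 154, 148.5 and 148 CPM in KO-labelled cultures, against 85, 89.4 and 84.1 CPM in VC-labelled cultures. The groups were far apart, with a log2 fold change of 0.81 ± 0.042 (SE, 95% interval 0.72 to 0.90), a 1.76-fold rise (edgeR adjusted p = 1.96e-08). It passed the threshold in all 12 settings tried for the culture comparison, with log2 fold changes of 0.57 to 0.85.

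Several of these culture changes lay close to the median change of the gene's own chromosome. Among genes of mean log2 CPM 3 or more, the median log2 fold change in cultures was 0.33 on chromosome 3, which carries Pogz, and 0.25 on chromosome 2, which carries Adnp and Mga. It was -0.45 on chromosome 6, with Cbx3 and Chd4, and -0.28 on chromosome 4, with Psip1. The chromosomes of Cbx1, Cbx5, Trim28 and Adnp2, which are 11, 15, 7 and 18, had medians of -0.042, -0.031, -0.052 and -0.001. The 25 genes on each side of Pogz had a median of 0.34, and Pogz was above 33 of these 50 and above 70.9% of the other genes on chromosome 3. Mga was above 47 of its 50 neighbours and Chd4 above 45, while Trim28 was above only 5 of its 50.

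With the median of each chromosome taken out as an offset, 3 of the 10 genes were higher and 1 was lower in KO-labelled cultures. These 4 of 10 stand beside 40.2% of all genes called in the same way, 19.7% higher and 20.5% lower. Mga kept a log2 fold change of 0.57 (edgeR adjusted p = 5.24e-07), and Trim28 one of -0.26 (adjusted p = 0.000188). Pogz came to 0.12 ± 0.043 (adjusted p = 0.041), a 1.09-fold difference. Chd4 turned round, from the fall given above to a rise of 0.34 ± 0.037 relative to chromosome 6 (adjusted p = 1.42e-05). Adnp at 0.095, Cbx3 at 0.13 and Psip1 at -0.052 no longer passed the threshold, with adjusted p values of 0.108, 0.145 and 0.527. What moved whole chromosomes was not tested.

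**Figure D3:**
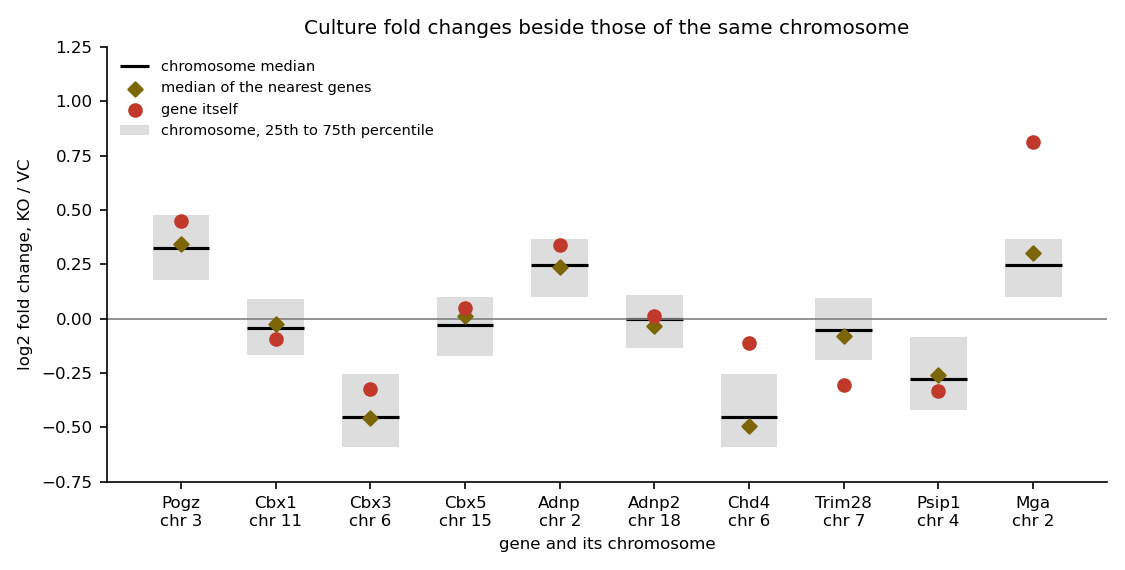
Log2 fold change in cultures, KO-labelled over VC-labelled (y axis), of each of the 10 genes (red points), beside the median (black line) and the 25th to 75th percentile (grey box) of its chromosome and the median of its nearest genes, up to 25 on each side (diamonds). Pogz and Adnp, at 0.45 and 0.34, lay within the grey box, while Mga, at 0.81, and Chd4, at -0.11, lay above it and Trim28, at -0.31, below it.

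In tumors none of the 10 genes passed the threshold in the edgeR test, and none had an unadjusted p under 0.05. This is the background too: 0% of 17153 genes were called, 956 had an unadjusted p under 0.05, and DESeq2 called 69 genes, none of them among the 10. No gene of the 10 had groups without overlap, against 10.6% of all genes tested. Tumor libraries were more spread, with a median coefficient of variation over the 10 genes of 10.6% in KO-labelled tumors and 11.2% in VC-labelled tumors, against 1.69% in KO-labelled cultures and 3.38% in VC-labelled cultures. The median SE of a log2 fold change was 0.16 in tumors and 0.042 in cultures, so changes of the size called in cultures were for the most part not detectable in tumors.

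Mga gave 273, 219.6 and 227 CPM in KO-labelled tumors, against 238, 146 and 242.5 CPM in VC-labelled tumors. Tumor POGZ_VC_8448 was well below the other 5, the groups overlapped, and the log2 fold change was 0.21 ± 0.22 (edgeR adjusted p = 0.917). It was 0.007 without that tumor, 0.11 without tumor POGZ_KO_8454 and 0.32 without tumor POGZ_VC_8451. Trim28 gave 152, 137 and 137 CPM in KO-labelled tumors, against 147, 152.5 and 148 CPM in VC-labelled tumors. Its log2 fold change of -0.065 had a 95% interval of -0.35 to 0.22, which holds both 0 and the -0.31 of the cultures.

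Adnp gave 253, 179 and 197 CPM in KO-labelled tumors, against 213, 195.5 and 214 CPM in VC-labelled tumors, with tumor POGZ_KO_8454 again the highest. Cbx3 gave 16.4, 15.2 and 17.6 CPM in KO-labelled tumors, against 19.3, 26.3 and 15.6 CPM in VC-labelled tumors, and its log2 fold change of -0.31 ± 0.24 did not pass (edgeR adjusted p = 0.887). That value was -0.073 without tumor POGZ_VC_8448 and -0.48 without tumor POGZ_VC_8451, and it was -0.18 with the pseudogenes added, against -0.35 in cultures. The sign of the log2 fold change was the same in cultures and tumors for 9 of the 10 genes (90%), all but Psip1, against 54.6% of 14873 genes tested in both. With chromosome medians taken out of both, it was the same for 5 of the 10 (50%), against 52% of all genes, with Pogz at -0.009 and Adnp at -0.029 in tumors.

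Whether the KO-labelled change differed between tumors and cultures was tested with an interaction term in a fit of the 12 libraries, and 2.05% of 18419 genes passed. None of the 10 genes passed. Mga had the largest difference, -0.60 ± 0.23 (95% interval -1.11 to -0.096, unadjusted p = 0.0236, edgeR adjusted p = 0.235), and it passed without tumor POGZ_VC_8448, at -0.81 with an adjusted p of 0.0109. Trim28 had a difference of 0.25 ± 0.11 (edgeR adjusted p = 0.286), which DESeq2 called with an adjusted p of 0.00511. Adnp passed without tumor POGZ_KO_8454, at -0.47 with an edgeR adjusted p of 0.0278. The difference for Pogz was -0.33 ± 0.21 (95% interval -0.78 to 0.12, edgeR adjusted p = 0.484). It was -0.52 without tumor POGZ_KO_8454 (adjusted p = 0.0702) and -0.19 without tumor POGZ_KO_8459. Whole chromosomes moved in this contrast too, with medians of -0.196 on chromosome 3, -0.19 on chromosome 2 and 0.371 on chromosome 6. Relative to the median of its chromosome, Pogz stood at -0.135, Adnp at -0.123, Mga at -0.411, Trim28 at 0.15, Cbx3 at -0.355 and Chd4 at -0.401.

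Pogz was higher in tumors, 1.61-fold between KO-labelled tumors and cultures and 2.02-fold between VC-labelled tumors and cultures (edgeR adjusted p = 0.00153 and 9.82e-05). Mga rose with it, by log2 fold changes of 0.67 ± 0.16 in KO-labelled and 1.28 ± 0.17 in VC-labelled libraries (adjusted p = 0.00342 and 4.13e-05). These comparisons called 4 of the 10 genes in KO-labelled libraries, 2 in each direction, and 7 of the 10 in VC-labelled libraries, 3 higher and 4 lower. Over all genes they called 64.1% and 64.9%, with 37.7% and 37.9% higher and 26.4% and 27% lower. The median log2 fold change over all genes tested was 0.159 in KO-labelled and 0.165 in VC-labelled libraries. Over the 10 genes it was -0.109 and -0.092. Chromosome medians were not taken out of these comparisons.

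Cbx5 had the largest fall. It gave 350.3, 276 and 286 CPM in KO-labelled tumors, against the 525 to 553 CPM of KO-labelled cultures, and 291, 332 and 268.5 CPM in VC-labelled tumors, against 510.3 to 538 CPM in VC-labelled cultures. The log2 fold changes were -0.81 ± 0.11 in both (edgeR adjusted p = 5.22e-05 in KO-labelled and 5.28e-05 in VC-labelled libraries). Cbx1 did not follow it, with log2 fold changes of -0.043 (95% interval -0.23 to 0.15) in KO-labelled and 0.026 (95% interval -0.16 to 0.22) in VC-labelled libraries. Chd4 was likewise near 0, at -0.023 in KO-labelled and 0.007 in VC-labelled libraries. The signs of the VC-labelled values of Cbx1 and Chd4 turned with the scaling, to -0.003 and -0.021 with RLE size factors.

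Cbx3 alone did not pass, at -0.18 ± 0.16 in KO-labelled and -0.19 ± 0.16 in VC-labelled libraries (edgeR adjusted p = 0.363 and 0.322). With its pseudogenes added it fell in both, by 0.59 ± 0.12 and by 0.77 ± 0.12 (adjusted p = 0.000907 and 0.000144). Without tumor POGZ_VC_8448 the gene alone passed in VC-labelled libraries, at -0.43. Trim28 fell by 0.48 ± 0.075 in KO-labelled and by 0.73 ± 0.075 in VC-labelled libraries (edgeR adjusted p = 0.000154 and 6.95e-06). Psip1, Adnp2 and Adnp passed in VC-labelled libraries, at -0.68, -0.47 and 0.52. In KO-labelled libraries they stood at -0.35, -0.23 and 0.21, short of the threshold. Each passed there without some libraries, Psip1 without tumor POGZ_KO_8459 or tumor POGZ_VC_8447, Adnp without tumor POGZ_KO_8455, and Adnp2 without tumor POGZ_KO_8454 or tumor POGZ_VC_8447 or POGZ_VC_8451. With no filter Psip1 and Adnp2 passed there too, and Adnp2 also with RLE size factors and with DESeq2. Whether the KO-labelled and VC-labelled changes differ is the interaction given above, which none of the 10 genes passed. The summed epithelial markers were lower and the macrophage markers higher in tumors, as given above, although Epcam alone was 1.72-fold higher in KO-labelled and 1.73-fold higher in VC-labelled tumors than in their cultures (edgeR adjusted p = 0.00032 and 0.000283). Fibroblast genes were at 2647 to 4914 CPM in KO-labelled tumors, 1743 to 2773 CPM in VC-labelled tumors and at most 30.02 CPM in cultures; their part in these changes was not tested.

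**Figure D4:**
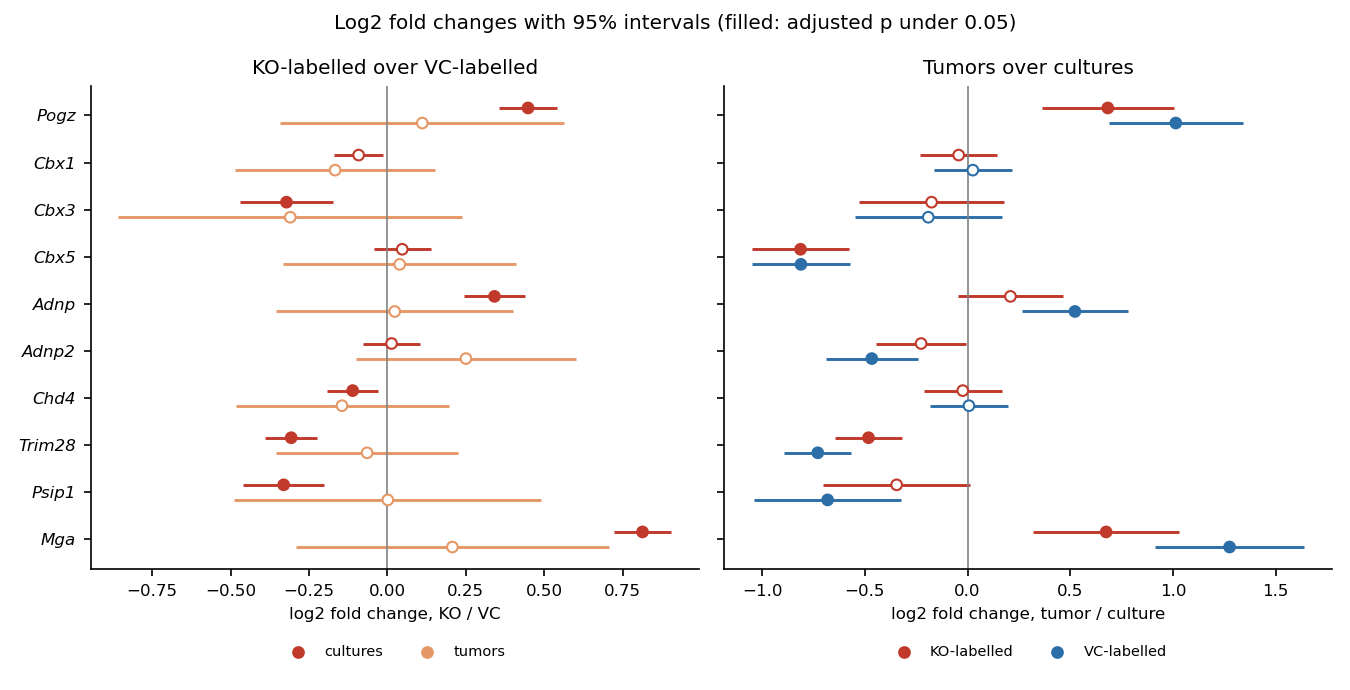
Log2 fold changes (x axis) of the 10 genes with 95% intervals from edgeR; filled points had an adjusted p under 0.05. Left, KO-labelled over VC-labelled in cultures and tumors, where 7 genes passed in cultures and 0 in tumors; right, tumors over cultures in KO-labelled and VC-labelled libraries, where Pogz and Mga lay right of 0 and Cbx5 and Trim28 left of it in both.

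Scaled by exon length, Chd4 was the most abundant of the 10 RNAs in 3 of the 4 groups, at 57.6 ± 3.2 CPM per kb in KO-labelled tumors, 64.05 ± 6.16 in VC-labelled tumors and 63.8 ± 0.916 in VC-labelled cultures (SD, n = 3 each). In KO-labelled cultures Cbx5 at 59.3 ± 1.79 CPM per kb and Chd4 at 58.6 ± 0.641 CPM per kb overlapped. Trim28, Psip1, Adnp and Cbx1 lay between 26.97 and 59.4 CPM per kb in all groups, in an order that differed between them. The low end held Adnp2, Mga, Pogz and Cbx3 in all groups, with Pogz at 7.33 ± 0.0842 in KO-labelled cultures, 5.42 ± 0.19 in VC-labelled cultures, 11.8 ± 2.65 in KO-labelled tumors and 10.9 ± 1.48 CPM per kb in VC-labelled tumors. Pogz lay above Cbx3, counted without its pseudogenes, without overlap in each group. It overlapped Mga in all groups but KO-labelled cultures, and overlapped Adnp2 in both tumor groups. With the pseudogenes added, the mean of Cbx3 went from 18.5 to 69.8 CPM in KO-labelled cultures and from 23.3 to 89.9 CPM in VC-labelled cultures. The place of Cbx3 in this order therefore rests on how reads were assigned.

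The partner complexes were followed through 61 genes in 7 lists, of which 12 were higher and 21 lower in KO-labelled cultures (edgeR adjusted p under 0.05), that is 33 of 61 against the 47.9% of all genes. The list median was -0.062. With chromosome medians taken out, 7 were higher and 16 lower, against 19.7% and 20.5% of all genes. Of the list genes named for cultures, Setdb1, Ehmt1, Rybp and Trim33 then no longer passed, at -0.044, -0.067, -0.073 and 0.081 (edgeR adjusted p = 0.458, 0.279, 0.475 and 0.109). In tumors 60 were tested and 0 passed, as for all genes. The genes of highest mean level over the 12 libraries in 6 of the lists, Rbbp4, Ehmt1, Morc2a, Tfdp1, Kmt2a and Atrx, had log2 fold changes of -0.16, -0.17, -0.15, -0.12, -0.026 and 0.077 between KO-labelled and VC-labelled tumors, with edgeR adjusted p values of 0.917 to 0.988.

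Of the 14 NuRD subunits beside CHD4, 5 rose and 4 fell in KO-labelled cultures, with a median log2 fold change of -0.041. Over all genes tested 23% were higher and 24.9% lower, and the counts of each list are to be read against these shares. The sister ATPase genes went apart: Chd3 rose by 0.68 ± 0.051 and Chd5 fell by 1.3 ± 0.16 (edgeR adjusted p = 4.12e-07 and 3.22e-05), and the subunit gene Gatad2a fell by 0.24. Chd5 was low, with means of 1.7 CPM in KO-labelled and 4.3 CPM in VC-labelled cultures, against 262 and 165 CPM for Chd3. With chromosome medians taken out, 3 of these 14 genes were higher and 3 lower, against 19.7% and 20.5% of all genes. Of 8 genes for methyltransferases of histone H3 lysine 9 and their cofactors, 2 rose and 3 fell. Setdb1, the enzyme recruited by TRIM28, rose by 0.28 ± 0.044 (edgeR adjusted p = 0.000176) and Ehmt1, which encodes GLP, by 0.18, while Atf7ip2, whose product binds SETDB1, fell by 1.79 ± 0.27 (adjusted p = 0.000141). Atf7ip2 was near the floor, with means of 0.51 CPM in KO-labelled and 1.8 CPM in VC-labelled cultures, and it was not tested in tumors. With chromosome medians taken out, 1 of these 8 genes was higher and 2 lower. Of the 4 genes of the HUSH complex and its partner MORC2, Morc2a rose by 0.19 and the other 3 did not pass. With chromosome medians taken out, 1 of these 4 was higher and 1 lower.

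Of 11 PRC1.6 subunits beside MGA, 2 rose and 3 fell in KO-labelled cultures, with a median of -0.062 while Mga itself rose. Rybp, which binds the RING proteins of the complex, fell by 0.53 ± 0.075, Rnf2, its ubiquitin ligase, fell by 0.38 ± 0.049, and Tfdp2, the partner of E2F proteins, rose by 0.28 ± 0.058 (edgeR adjusted p = 8.98e-05, 4.32e-05 and 0.00173). With chromosome medians taken out, 1 of these 11 subunits was higher and 2 lower. Of 7 partners of LEDGF, Cdca7l fell by 0.31 and Men1, the gene of menin, by 0.21. With chromosome medians taken out, 0 of these 7 were higher and 2 lower. Of 11 other HP1-binding proteins, 2 rose and 6 fell, among them the TRIM28 relatives Trim33, which rose by 0.41 ± 0.038, and Trim24, which fell by 0.58 ± 0.044, and Lbr, the lamin B receptor, which fell by 0.35 (edgeR adjusted p = 2.78e-06, 5.1e-07 and 1.35e-05). With chromosome medians taken out, 0 of these 11 were higher and 3 lower. Trim24, on chromosome 6, then stood at -0.125 (edgeR adjusted p = 0.0397), Lbr at -0.23 (adjusted p = 0.000562) and Trim33, on chromosome 3, at 0.081, short of the threshold.

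The list nearest to the mitotic role of POGZ held the Aurora B complex and the CHAMP1 and REV7 proteins, 6 genes in all. In KO-labelled cultures 3 fell, which were Cdca8, the gene of borealin, by 0.51 ± 0.044, Aurkb, the kinase itself, by 0.46 ± 0.048, and Birc5, the gene of survivin, by 0.20 ± 0.052 (edgeR adjusted p = 1.38e-06, 6.87e-06 and 0.00698). The other 3 did not pass, and the list median was -0.13. Of all genes tested 24.9% were lower. With chromosome medians taken out, 1 of the 6 was higher and 3 were lower, against 19.7% and 20.5% of all genes. Cdca8 then stood at -0.233, Aurkb at -0.419 and Birc5 at -0.155, while Mad2l2, the gene of REV7, was higher at 0.439 (edgeR adjusted p = 0.00247). In tumors none of the 6 passed; Incenp, the highest of them over the 12 libraries, had a log2 fold change of 0.30 ± 0.28 between KO-labelled and VC-labelled tumors (edgeR adjusted p = 0.914). Between tumors and cultures 6 of 6 were lower in KO-labelled libraries, with a median of -1.26, and 5 of 6 in VC-labelled libraries, with a median of -1.74, against 26.4% and 27% of all genes. Over all 61 list genes, 9 were higher and 31 lower in KO-labelled tumors than in KO-labelled cultures, against 37.7% and 26.4% of all genes. Between VC-labelled tumors and cultures 11 were higher and 32 lower, against 37.9% and 27% of all genes.

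**Figure D5:**
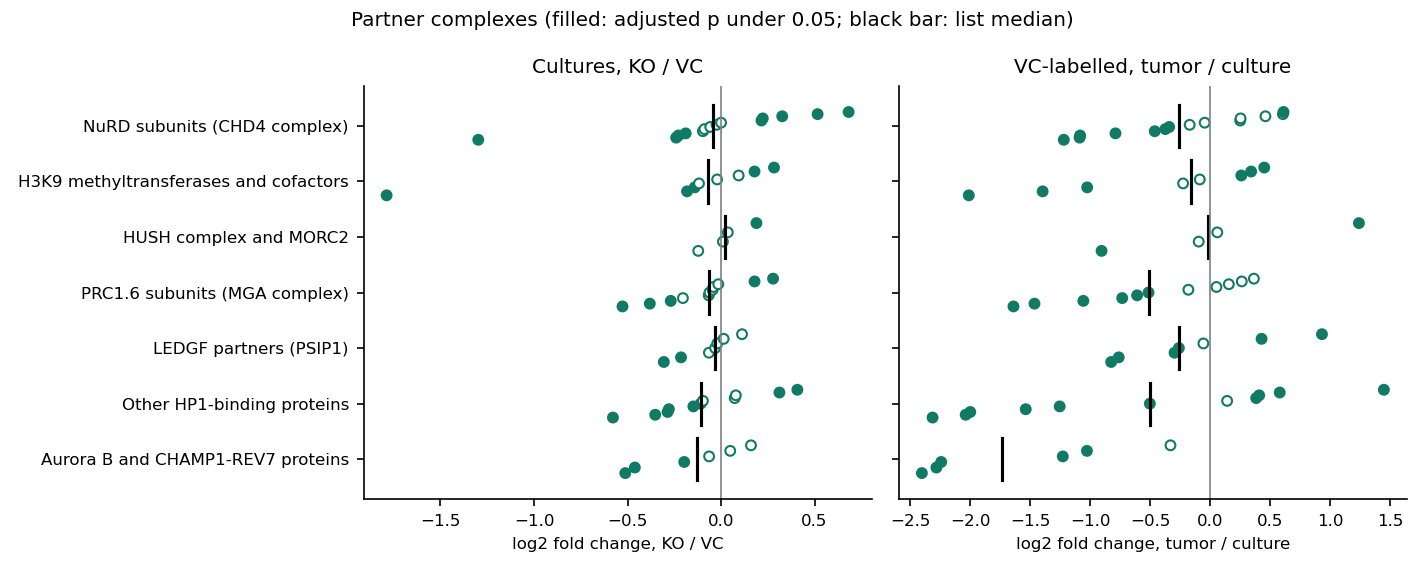
Log2 fold changes (x axis) of the 61 partner genes by list, KO-labelled over VC-labelled in cultures (left) and VC-labelled tumors over VC-labelled cultures (right); filled points had an edgeR adjusted p under 0.05 and black bars are list medians. In cultures each list lay around 0, with medians from -0.13 to 0.023, and in the right panel the Aurora B list had its median at -1.74.

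The genes whose level across the 12 libraries was most like that of Pogz, by Pearson correlation of log2 CPM over 10751 genes, were Rprd2 (r = 0.991), Rit1 (0.989), Sclt1 (0.988), Fam63a (0.986) and Cul7 (0.984). Of these 5, 4 lie on chromosome 3 with Pogz and Cul7 lies on chromosome 17. The 12 libraries fall into cultures and tumors, and the correlations rest in part on that split. Among the 10 genes, the same measure was 0.897 for Pogz with Adnp and with Mga. It was -0.909 with Trim28, -0.902 with Psip1 and -0.808 with Cbx5, and ran from -0.584 to -0.098 for the rest.

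Promoters were examined because Mga, whose protein binds E-boxes and T-box sites, changed most in cultures. RefSeq promoters (GRCm38.p6) were found for 8 of the 10 genes, all but Psip1 and Adnp2. The 250 bases before each start were searched on both strands for CACGTG, the E-box bound by MAX dimers, for GGTGTGA, a short T-box site, and for GCGGGAA, a form of E2F site; these motifs do not overlap one another, and they occurred in 6.02%, 3.33% and 3.82% of 32851 promoters. An E-box was found in 1 of the 2 Cbx5 promoters, 136 bases before the start, and an E2F site in that of Trim28, 178 bases before the start. No other match was found in these windows. The 150 bases before the start are printed for Pogz and for Mga, which rose with it in cultures and in tumors against cultures, and for Cbx5, whose E-box is in capitals.
Pogz, chr3:94837287-94837436, plus strand: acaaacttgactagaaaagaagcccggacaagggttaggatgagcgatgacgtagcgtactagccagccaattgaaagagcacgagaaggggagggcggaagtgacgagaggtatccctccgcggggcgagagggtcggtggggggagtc
Mga, chr2:119897078-119897227, plus strand: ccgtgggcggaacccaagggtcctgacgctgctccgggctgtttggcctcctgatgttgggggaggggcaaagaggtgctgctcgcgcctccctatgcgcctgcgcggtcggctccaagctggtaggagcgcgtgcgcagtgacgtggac
Cbx5, chr15:103239853-103240002, minus strand: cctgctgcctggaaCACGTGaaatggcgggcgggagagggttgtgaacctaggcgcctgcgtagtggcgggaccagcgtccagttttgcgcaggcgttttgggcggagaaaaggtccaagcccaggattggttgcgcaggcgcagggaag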

How the data were processed

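RNA-seq of 12 libraries was deposited as 2 tables of raw counts per Ensembl gene, 1 for cultures and 1 for tumors, which were whole numbers and were used as deposited. Libraries were made with a KAPA kit with ribosomal RNA depletion, per the labels' protocols. Trimmomatic 0.32, STAR 2.3.0e and featureCounts 1.4.4 with mm10 were used, per the submitters' processing notes; the annotation release, strand setting and treatment of reads with several matches are not given in the sources used here. Genes were placed on GRCm38 through GENCODE M21, which held 37693 of 39017 IDs.

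Tests used edgeR 4.0.16 in R 4.3.3, with filterByExpr, TMM scaling, the quasi-likelihood test and Benjamini-Hochberg adjustment over all genes tested, at 0.05. Cultures and tumors were fitted apart, each with its KO-labelled and VC-labelled libraries. The interaction and tumors against cultures came from 1 fit of all 12. Levels are CPM scaled by TMM over all 12 libraries. All 10 genes passed the filter in each fit. HP1 shares used 2-sided exact permutation tests. DESeq2 1.42.0 and the other alternatives are given in the closing section. Python 3.11.15 with pandas 2.3.3 and matplotlib 3.10.9 read the tables and drew figures.

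The 10 genes, the 7 partner lists and the marker lists were chosen with earlier results of these data known. From each list, the text names up to 3 called genes of smallest p in cultures, and in tumors, where none was called, the tested gene of highest mean over the 12 libraries. Of the symbols of all lists, 104 of 104 matched, 1 by an older name. The test was checked on simulated counts, with 50 genes changed at each size. It recovered 82% of 1.5-fold and 98% of 2-fold changes in cultures. In tumors it recovered 8% and 42%, and for the interaction 0% and 36%. Replicates of each group differed by more than sampling noise.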

Additional observations from a re-analysis of the deposited data

How the results depend on the processing

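The 7 culture calls were the same under RLE scaling, with no filter and with DESeq2, and 6 to 7 of the 10 genes were called without each library in turn, with Pogz at 0.426 to 0.473; values given for a gene here are log2 fold changes. In a fit of all 12 libraries Pogz was at 0.436 and 2 of the 10 genes were called. With chromosome medians taken out 4 were called, against 40.2% of all genes, Cbx3 was at 0.131 and Chd4 at 0.343. In tumors no setting called any of the 10. Pogz ran from -0.068 to 0.246 without each library and was at -0.009 with chromosome medians taken out, where Adnp was at -0.029. Psip1 in tumors was at -0.004 under RLE scaling, -0.007 in the fit of 12 and -0.031 with libraries thinned to 4712001 counts. Without each library, Adnp ran from -0.13 to 0.111, Cbx5 from -0.07 to 0.132 and Psip1 from -0.184 to 0.16 in tumors.

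For the difference of effects, DESeq2 called 1 of the 10, leaving out libraries called 0 to 1, Cbx5 was at 0.011 under RLE scaling and 0.013 with DESeq2, and without each library Cbx5 ran from -0.117 to 0.086, Cbx3 from -0.147 to 0.254 and Chd4 from -0.083 to 0.052. Between VC-labelled tumors and cultures, Cbx1 was at -0.003, -0.161 and -0.021 and Chd4 at -0.021, -0.182 and -0.041 under RLE scaling, no filter and DESeq2. Leaving out the filter shifted the median of all genes by -0.188 there. Without each library, Cbx1 ran from -0.046 to 0.071 and Chd4 from -0.082 to 0.057, and Chd4 in KO-labelled libraries from -0.141 to 0.001. The differences of the HP1 shares in cultures, with pseudogenes added, were -0.952 points for Cbx1, -2.75 for Cbx3 and 3.7 for Cbx5. Over all genes, the fit of 12 called 1501 in cultures and 64 in tumors, and the difference of effects called 940 with DESeq2 and 147 to 1588 without each library, the highest without tumor POGZ_KO_8454. The causes were not tested.

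The culture numbers gave no sign of pairing: same-numbered deviations correlated at -0.163, 0.023 and 0.056, and differently numbered ones at -0.22 to 0.217. Deviations of 3 libraries from their own group mean are not independent, so these values cannot decide whether the libraries were paired. With the number as a replicate block, 7237 genes were called against 7523 without it, Pogz was at 0.449 against 0.448, and 6 of the 10 genes were called, without Chd4 (adjusted p = 0.0509). With tumors thinned to 4712001 counts the SE of Pogz was 0.194 against 0.195, and 0 genes were called. The pseudogene and tumor chromosome settings were chosen after seeing the data.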

Other observations

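The endothelial genes summed to 208.5 to 254 CPM in KO-labelled tumors, against 122 to 230.3 CPM in VC-labelled tumors. The neutrophil genes summed to 83.9 to 404 CPM in KO-labelled tumors, against 42.6 to 359 CPM in VC-labelled tumors, and the T and NK cell genes to 26.97 to 79.8 CPM and 20.2 to 46.02 CPM in the same groups. The B cell genes were at 78.6 CPM in tumor POGZ_KO_8459 and at most 3.49 CPM in the other 5 tumors. Adipocyte genes reached 12.05 CPM and skeletal muscle genes 8.41 CPM, both in tumor POGZ_KO_8455. In cultures these 6 lists summed to at most 2.09 CPM each, a value set by the muscle genes, which were at 0.507 to 2.05 CPM in the other 5 tumors and so no higher than in cultures. Adipocyte genes were at 0 in tumor POGZ_VC_8451.

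Gm15773, a processed pseudogene on chromosome 7 that shares sequence with Psip1, fell in KO-labelled cultures as Psip1 did, by 0.29 ± 0.099 on the log2 scale (edgeR adjusted p = 0.0303). With its counts added, Psip1 fell by 0.33 ± 0.062 (adjusted p = 0.000823).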
